A study of Mus musculus with 18 samples.

Results

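Matrix glycoproteins are secreted proteins that join collagens and cells into the extracellular matrix, and the 10 genes described here were chosen by name: fibronectin (Fn1), Sparc, tenascin C (Tnc), periostin (Postn), osteopontin (Spp1), thrombospondins 1 and 3 (Thbs1, Thbs3), fibrillin 1 (Fbn1), fibulin 2 (Fbln2) and Serpinf1, also called PEDF. All 10 were found by gene ID among the 50686 genes of the count files. Fibronectin and fibrillin 1 build fibrils, while tenascin C, thrombospondin 1, osteopontin, Sparc and periostin are called matricellular proteins because they act on adhesion and signaling more than on structure. In mammary tumors such proteins are made by stromal fibroblasts and by tumor cells, and several of them are known from the niches in which metastatic cells settle.

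RNA-seq was done on mouse E0771 cells, a mammary tumor line labelled as triple negative, that carried firefly luciferase and a retroviral hairpin. The 3 lines were cntrl, with a hairpin against Renilla luciferase, and shCdk8-1 and shCdk8-2, each with another hairpin against Cdk8, a kinase of the Mediator complex. Cells of each line received DMSO or 1 µM Senexin B (SnxB) for 48 h, the latter an inhibitor of CDK8 and its homologue CDK19, with 3 libraries in each of the 6 groups. Each hairpin is present in 1 transduced line, so an effect of the hairpin and a property of the line cannot be told apart, and the labels do not say whether the 3 libraries of a group came from separate cultures, so p-values measure the spread between these libraries only.

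The 18 libraries held 16452260 to 22664693 counts, and 3 counts, below which a level cannot be told from 0, correspond to 0.132 to 0.182 CPM (counts scaled to the library total). Levels are given as CPM scaled by edgeR's TMM factors, and in RPKM (the same per kilobase of exons) where genes are compared with each other. A gene passed if edgeR's quasi-likelihood test gave it an adjusted p under 0.05 and was called deregulated if it also changed more than 2-fold. Cdk8 in DMSO was 58.6, 54.8 and 55.1 CPM in cntrl libraries, 22.2, 18.7 and 23.4 CPM in shCdk8-1 and 38.5, 38.9 and 39.2 CPM in shCdk8-2, so the targeted mRNA fell by 61.8% (adjusted p = 3.22e-11) and fell by 31.0% (adjusted p = 1.6e-06).

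The markers of the labelled cell type were only partly present. Of 6 mammary epithelial markers, Krt5, Krt14 and Krt18 had at most 1 count in any library and Epcam at most 8. The summed level of the list was 0.246 CPM in cntrl, 8.47 in shCdk8-1 and 13.4 in shCdk8-2 cells in DMSO (0.164, 8.178 and 12.3 CPM in SnxB). In the knockdown lines nearly all of it was Krt8. In cntrl cells most of it was Cdh1, at 0.141 CPM in DMSO and 0.132 CPM in SnxB, both under the level of 3 counts and so not told from 0. Among the receptors by which triple-negative tumors are defined, Pgr had 0 counts, Erbb2 had 47.3 to 55.8 CPM in the group means, and Esr1 had 23.1 CPM in cntrl but 1.25 and 0.951 CPM in the knockdown lines in DMSO. The summed level of 7 fibroblast markers in cntrl, shCdk8-1 and shCdk8-2 cells was 2540, 1820 and 2119 CPM with DMSO and 3259, 1934 and 2405 CPM with SnxB, with Col3a1, Pdgfra and Pdgfrb high and Thy1 at no more than 1 count. Within that list Col1a1 went the other way, with DMSO means of 0.780, 16.6 and 9.91 CPM, as did Dcn, at 0.540, 1.82 and 0.814 CPM. Lum was also higher on average in both knockdown lines in DMSO but had at most 7 counts in any library. Endothelial markers summed to 2.97 to 16.9 CPM, with Pecam1 at 0.286, 14.3 and 5.85 CPM and Cdh5 at 4.34, 0.206 and 0.595 CPM in DMSO in the same order, and leukocyte markers summed to 3.37 to 7.67 CPM. These levels moved with the lines, and their part in the results on the glycoproteins was not tested.

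Per length of exon, the members spanned the range from among the most abundant mRNAs to undetected ones. In cntrl cells in DMSO, Sparc, a collagen-binding protein, reached 244 ± 8.02 RPKM (SD, n = 3) and ranked 86th of 12772 genes, and Spp1, a ligand of integrins and CD44, reached 148 ± 8.95 RPKM (SD, n = 3) and ranked 197th. Fbln2 had 20.2 ± 0.221 RPKM, Serpinf1 11.2 ± 0.467 RPKM and Thbs3 7.80 ± 0.389 RPKM (SD, n = 3 each). Tnc had 2.86 ± 0.144 RPKM and Fbn1 0.281 ± 0.0720 RPKM (SD, n = 3 each). All neighbors in this order were further apart than their SDs. The mRNA of Fn1, a fibril-forming ligand of integrins, was all but undetected: 10 counts in 18 libraries, no more than 3 in any, and 0 in 12 libraries. Postn had 27 counts in all, with 0 in 6 libraries and at most 7 in 1 shCdk8-2 library in DMSO. The count filter removed both, so 8 members were tested. Thbs1 passed the filter only through the knockdown lines, which means that it had to differ between lines to be tested at all.

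RefSeq promoter windows (GRCm38.p6), which hold 250 bases before and 50 bases after a start site, were on hand for 8 members. The bases before the annotated gene are shown for 4 members that moved in different ways: Tnc fell in both knockdown lines, Thbs3 rose in both, Spp1 fell in shCdk8-2 only, and Serpinf1 rose with SnxB. They are, 5′ to 3′ on the strand of the gene, Tnc chr4:64047016-64047265 (minus strand), Thbs3 chr3:89214930-89215179 (plus strand), Spp1 chr5:104434861-104435117 (plus strand) and Serpinf1 chr11:75422702-75422873 (minus strand), with capitals at the matches described next.
Tnc: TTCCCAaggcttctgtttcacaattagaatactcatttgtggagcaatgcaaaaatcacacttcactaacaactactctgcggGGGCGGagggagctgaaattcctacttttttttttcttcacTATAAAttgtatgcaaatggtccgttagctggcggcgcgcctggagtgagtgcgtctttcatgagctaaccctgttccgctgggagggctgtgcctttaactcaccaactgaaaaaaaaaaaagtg
Thbs3: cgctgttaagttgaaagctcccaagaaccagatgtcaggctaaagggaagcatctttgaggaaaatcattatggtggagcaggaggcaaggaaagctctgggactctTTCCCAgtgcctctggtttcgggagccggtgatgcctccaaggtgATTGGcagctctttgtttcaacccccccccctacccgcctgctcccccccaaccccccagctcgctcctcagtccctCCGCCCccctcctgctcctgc
Spp1: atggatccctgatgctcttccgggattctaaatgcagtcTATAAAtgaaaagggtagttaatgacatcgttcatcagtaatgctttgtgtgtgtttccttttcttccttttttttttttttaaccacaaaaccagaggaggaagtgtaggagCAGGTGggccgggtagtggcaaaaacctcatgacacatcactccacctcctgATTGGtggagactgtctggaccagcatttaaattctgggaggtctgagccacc
Serpinf1: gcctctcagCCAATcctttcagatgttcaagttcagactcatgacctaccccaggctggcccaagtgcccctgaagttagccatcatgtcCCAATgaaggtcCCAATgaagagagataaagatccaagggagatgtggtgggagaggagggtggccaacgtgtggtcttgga
Matches to 6 short motifs were searched on both strands, namely the TATA box (letters TATAAA), the inverted or direct CCAAT box (letters CCAAT), the GC box (letters GGGCGG), a site of the AP-1 type (letters TGANTCA), an E-box (letters CAGGTG) and a site of the CSL type (letters TGGGAA). Serpinf1 held the CCAAT box at 3 places, and at least 1 such match was present in 37.4% of all 32851 mouse windows searched. Tnc held the letters of a TATA box 126 bases before the start site, found in 13.6% of windows, with a GC box (35.7%) and the CSL type (25.6%). Spp1 held the letters of a TATA box 211 bases before the start site, an E-box (20.2%) and a CCAAT box. Thbs3 held a CCAAT box, a GC box and the CSL type. No member window held the AP-1 type, which 7.81% of all windows did. No 2 matches overlapped, and a match is a string of letters, not a measured binding site.

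**Figure D1:**
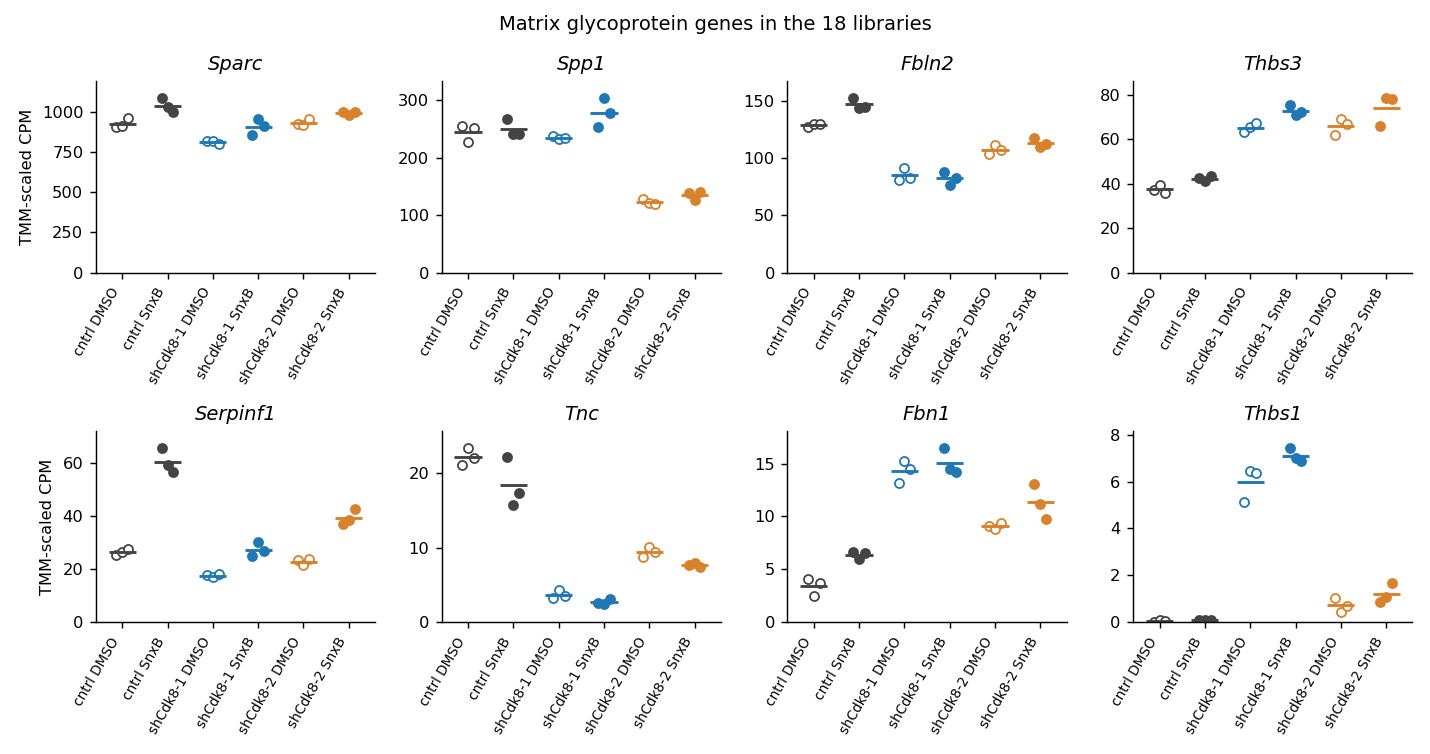
Level of 8 matrix glycoprotein genes in TMM-scaled CPM (linear axis from 0, 1 panel per gene) in the 3 libraries of each group. Open circles are DMSO, filled circles are SnxB, lines are group means, and colors mark the lines; Tnc is lower and Thbs3, Fbn1 and Thbs1 are higher in all knockdown libraries than in all cntrl libraries, while Serpinf1 is higher in SnxB within each line.

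The first comparison asked how loss of Cdk8 mRNA in DMSO went with these genes. In shCdk8-1 cells 7 of the 8 tested members passed, 3 higher and 4 lower, at a background of 60.6% of all 12590 genes tested (30.0% higher and 30.6% lower). In shCdk8-2 cells 7 passed as well, 3 higher and 4 lower, at a background of 58.2% (28.7% higher and 29.5% lower). In each line 3 members were deregulated, Tnc, Fbn1 and Thbs1, where 12.3% of all genes were with shCdk8-1 and 10.8% with shCdk8-2. The count filter had fixed the call of Thbs1, and of the other 7 members 6 passed in each line, 2 higher and 4 lower, with Tnc and Fbn1 deregulated. The median log2 fold change of the 8 members was -0.13 and -0.11 (-0.19 and -0.22 without Thbs1), beside 0.0019 and 0.0043 for all genes tested, so the members moved to both sides. Both comparisons used the same 3 cntrl libraries, and in bulk libraries fewer cells that express a gene and less mRNA per cell cannot be told apart.

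Tnc, which loosens the adhesion of cells to fibronectin, fell most. It was 21.1, 23.4 and 22.1 CPM in cntrl, 3.20, 4.27 and 3.56 CPM in shCdk8-1 and 8.75, 10.2 and 9.37 CPM in shCdk8-2 libraries. The 3 lines did not overlap. The log2 fold change against cntrl was -2.61 (SE 0.135, adjusted p = 1.02e-10) with shCdk8-1, which means that Tnc fell by 83.6%. With shCdk8-2 it was -1.25 (SE 0.114, adjusted p = 1.29e-07), and Tnc fell by 57.8%.

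Fbn1, the main component of elastic microfibrils, was higher in both knockdown lines. It was 4.13, 2.44 and 3.67 CPM in cntrl, 13.2, 15.3 and 14.5 CPM in shCdk8-1 and 9.05, 8.83 and 9.42 CPM in shCdk8-2 libraries. The lines were again apart from each other. The increase was 4.20-fold with shCdk8-1 (log2 2.07, SE 0.126, adjusted p = 7.09e-10) and 2.66-fold with shCdk8-2 (log2 1.41, SE 0.134, adjusted p = 1.91e-07).

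The thrombospondins bind calcium and cell surface receptors, and type 1 also activates latent TGF-β. Thbs1 had 0, 2 and 1 counts in the cntrl libraries, 109, 113 and 123 in shCdk8-1 and 24, 9 and 13 in shCdk8-2. No knockdown library reached down to a cntrl library, and no shCdk8-2 library reached up to shCdk8-1. Over the summed counts the ratio was 109 (95% interval for counting error only, 36.9 to 531) for shCdk8-1 and 13.9 (4.47 to 69.8) for shCdk8-2, with adjusted p = 2.13e-10 and 6.91e-05. The fitted log2 values of 6.61 and 3.64 rest on those 3 cntrl counts and ran from 6.16 to 7.47 and from 3.19 to 4.50 when 1 library was left out, lowest without cntrl replicate 1 and highest without cntrl replicate 2. Even in shCdk8-1 cells its mean level was 5.97 ± 0.737 CPM (SD, n = 3). Thbs3 was 37.3, 39.6 and 35.9 CPM in cntrl, 63.2, 65.4 and 67.2 CPM in shCdk8-1 and 61.9, 69.0 and 67.1 CPM in shCdk8-2 libraries. Both knockdown lines lay above cntrl and overlapped with each other. Its increase was 1.73-fold (SE of the log2 value 0.0520, adjusted p = 1.83e-09) and 1.75-fold (SE 0.0519, adjusted p = 2.05e-09).

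Fbln2, which links fibrillin and basement membrane proteins, was 127, 130 and 130 CPM in cntrl, 81.0, 90.9 and 82.9 CPM in shCdk8-1 and 103, 111 and 107 CPM in shCdk8-2 libraries. The 3 lines did not overlap, and Fbln2 fell by 34.3% with shCdk8-1 (log2 -0.61, SE 0.0446, adjusted p = 7.34e-09) and fell by 17.2% with shCdk8-2 (log2 -0.27, SE 0.0439, adjusted p = 5.98e-05). Serpinf1, a secreted serpin known to restrain blood vessel growth, was 25.4, 26.5 and 27.6 CPM in cntrl, 17.8, 16.9 and 18.02 CPM in shCdk8-1 and 23.5, 21.4 and 23.7 CPM in shCdk8-2 libraries. All knockdown libraries were below all cntrl libraries. It fell by 33.9% with shCdk8-1 (log2 -0.60, SE 0.0693, adjusted p = 1.62e-06) and fell by 14.2% with shCdk8-2 (log2 -0.22, SE 0.0669, adjusted p = 0.00983). The second call was lost without cntrl replicate 3 in DMSO (adjusted p = 0.0559) or without shCdk8-2 replicate 2 in DMSO (adjusted p = 0.0552).

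The 2 most abundant members each changed in 1 line only by the test. Sparc was 906, 911 and 961 CPM in cntrl, 816, 820 and 799 CPM in shCdk8-1 and 926, 916 and 953 CPM in shCdk8-2 libraries. It fell by 12.5% with shCdk8-1 (log2 -0.19, SE 0.0390, adjusted p = 0.000463), whose libraries lay below the others, and had a log2 fold change of 0.0029 (SE 0.0390, adjusted p = 0.956) with shCdk8-2. Spp1 was 254, 227 and 251 CPM in cntrl, 238, 233 and 234 CPM in shCdk8-1 and 129, 121 and 120 CPM in shCdk8-2 libraries. Here the shCdk8-2 libraries stood apart. Spp1 fell by 49.8% with shCdk8-2 (log2 -0.99, SE 0.0491, adjusted p = 8.76e-11), just short of the 2-fold limit, and had a log2 fold change of -0.06 (SE 0.0479, adjusted p = 0.311) with shCdk8-1. Without cntrl replicate 2 or shCdk8-2 replicate 1 it passed that limit, with log2 values down to -1.04.

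**Figure D2:**
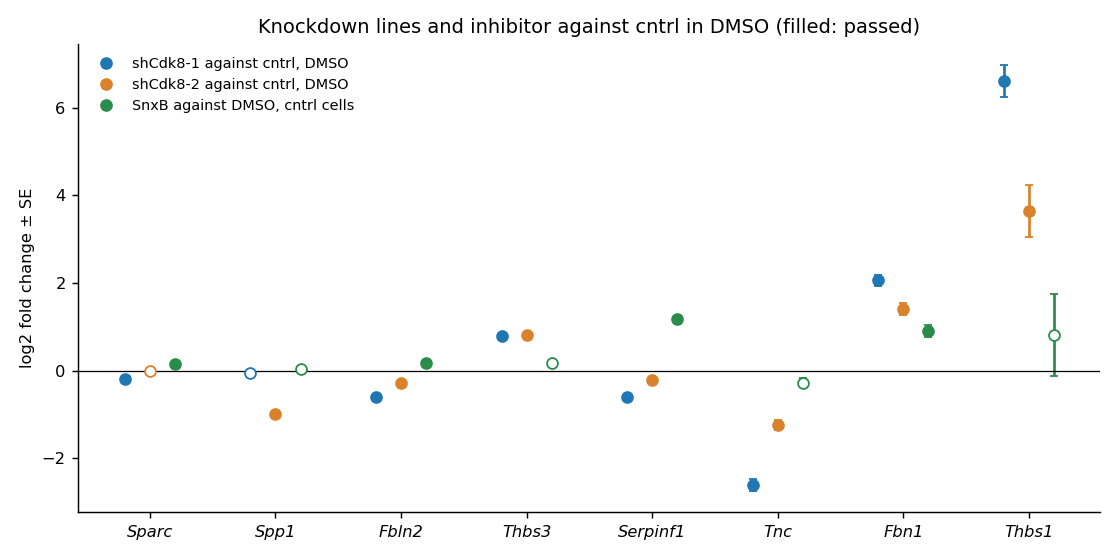
Log2 fold change ± SE (linear axis) of the 8 tested members for shCdk8-1 against cntrl, shCdk8-2 against cntrl and SnxB against DMSO in cntrl cells, each point a comparison of 3 with 3 libraries and filled where the adjusted p was under 0.05. Tnc is lowest at -2.61 with shCdk8-1, Thbs1 is highest at 6.61 on 3 counts in all cntrl libraries together, and Serpinf1 lies below 0 with both hairpins and at 1.18 with SnxB.

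The knockdown lines were next compared with each other, since shCdk8-2 left more Cdk8 mRNA (log2 0.85 against shCdk8-1, adjusted p = 3.07e-07). Of the 8 members 7 passed, 4 higher and 3 lower in shCdk8-2, at a background of 22.0% (11.3% higher and 10.6% lower). Tnc was 2.57-fold higher in shCdk8-2 (log2 1.36, SE 0.151, adjusted p = 1.12e-05) and Thbs1 was lower (log2 -2.97, SE 0.213, adjusted p = 1.16e-07), and these 2 members were deregulated where 2.07% of all genes were. Without Thbs1, 6 of 7 members passed and Tnc was the 1 deregulated. For Tnc, Fbn1, Thbs1, Fbln2 and Serpinf1 the mean of shCdk8-2 lay between cntrl and shCdk8-1, and each of them differed between the knockdown lines, Fbn1 with a log2 value of -0.66 (adjusted p = 0.000297), Fbln2 with 0.33 (adjusted p = 6.8e-05) and Serpinf1 with 0.38 (adjusted p = 0.00112). Sparc, at cntrl level in shCdk8-2, was higher there by 0.20 on the log2 scale (adjusted p = 0.00197). Spp1 was outside that order: its log2 value was -0.94 (SE 0.0490, adjusted p = 4.79e-09), with shCdk8-2 below the other lines. Thbs3 had a log2 value of 0.01 (SE 0.0493, adjusted p = 0.911). With 1 line per hairpin, a link to the level of Cdk8 mRNA cannot be told apart from a property of the line.

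SnxB in cntrl cells asked what the inhibitor does while Cdk8 mRNA remains. It raised 4 of the 8 members, Serpinf1, Fbn1, Fbln2 and Sparc, where 5.53% of all genes passed and 3.42% passed upwards, and the members' median log2 fold change was 0.18 beside 0.0064 for all genes. No member passed downwards, though Tnc had an unadjusted p of 0.0175 (log2 -0.28). Serpinf1 rose from 25.4, 26.5 and 27.6 CPM in DMSO to 65.4, 58.9 and 56.6 CPM in SnxB, with no overlap. This was a 2.27-fold increase (log2 1.18, SE 0.0625, adjusted p = 2.06e-08), and Serpinf1 was the 1 member deregulated by SnxB where 0.318% of all genes were. Leaving out any 1 library kept its log2 value between 1.12 and 1.23.

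Fbn1 rose from 4.13, 2.44 and 3.67 CPM to 6.61, 5.94 and 6.51 CPM, a 1.87-fold increase (log2 0.90, SE 0.143, adjusted p = 0.00116). Its groups did not overlap, and without cntrl replicate 1 in DMSO the log2 value was 1.04, past the 2-fold limit. Sparc reached 1082, 1028 and 996 CPM in SnxB (log2 0.16, SE 0.0390, adjusted p = 0.0221) and Fbln2 reached 152, 143 and 145 CPM (log2 0.19, SE 0.0434, adjusted p = 0.0186), all above their DMSO libraries. These 2 small changes depended on single libraries: without replicate 1 or 2 of cntrl in DMSO or replicate 1 of cntrl in SnxB neither passed, and the loss of cntrl replicate 2 in SnxB ended the call for Sparc and that of cntrl replicate 3 in DMSO the call for Fbln2 (adjusted p up to 0.105 for Sparc and 0.0758 for Fbln2).

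The remaining 4 members did not pass. Thbs3 was 42.4, 41.2 and 43.4 CPM in SnxB, above all 3 DMSO libraries, with a log2 fold change of 0.17 (SE 0.0536, adjusted p = 0.0818). Tnc was 22.1, 15.7 and 17.3 CPM and overlapped with DMSO (log2 -0.28, SE 0.105, adjusted p = 0.153), but passed without cntrl replicate 1 in SnxB (log2 -0.43, adjusted p = 0.00819). It also passed in edgeR without a count filter (log2 -0.29, adjusted p = 0.0214). Spp1 had a log2 value of 0.04 (SE 0.0478, adjusted p = 0.761). Thbs1 had 2 counts in each SnxB library, so neither group was above 3 counts and no fold is given.

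Set side by side, SnxB and the hairpins shared the direction of Fbn1 only among the members that passed in all 3 comparisons. Serpinf1 and Fbln2 were lower in both knockdown lines and higher in SnxB. The 3 comparisons share the cntrl libraries in DMSO, so their values are not independent.

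The knockdown lines were also treated with SnxB. In shCdk8-1 cells 2 members passed (background 1.48%) and in shCdk8-2 cells 1 did (background 2.05%). Serpinf1 passed in both. In shCdk8-1 cells it rose from 17.8, 16.9 and 18.02 CPM to 24.7, 30.2 and 26.6 CPM (log2 0.63, SE 0.0805, adjusted p = 0.000204). In shCdk8-2 cells it rose from 23.5, 21.4 and 23.7 CPM to 37.0, 38.3 and 42.7 CPM (log2 0.78, SE 0.0750, adjusted p = 5.3e-06). Treated and untreated libraries were apart in every line, so Serpinf1 was higher in SnxB in 9 of 9 libraries than in any DMSO library of the same line. Spp1 was the other member that passed in shCdk8-1 cells, at 254, 303 and 278 CPM in SnxB (log2 0.24, SE 0.0592, adjusted p = 0.0435), and its call was lost without any of 5 of the 6 libraries compared, all but shCdk8-1 replicate 1 in SnxB (adjusted p up to 0.233). Sparc in shCdk8-1 cells was 816, 820 and 799 CPM in DMSO and 858, 952 and 908 CPM in SnxB, with no overlap (log2 0.16, SE 0.0402, adjusted p = 0.0542). It missed the limit, and passed with library totals, without a filter, with a filter of over 1 CPM in 3 libraries and by DESeq2 (adjusted p of 0.0175, 0.0419, 0.0336 and 0.0126).

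Fbn1, which rose in cntrl cells, had log2 values of 0.07 (SE 0.108, adjusted p = 0.804) in shCdk8-1 cells and 0.33 (SE 0.118, adjusted p = 0.212) in shCdk8-2 cells, where its level was already higher in DMSO. Its libraries in SnxB were 16.5, 14.4 and 14.2 CPM with shCdk8-1, overlapping with DMSO, and 13.1, 11.2 and 9.75 CPM with shCdk8-2, above DMSO. Thbs3 differed by 0.16 and 0.17 on the log2 scale (adjusted p = 0.22 and 0.197), close to its value in cntrl cells. Tnc had log2 values of -0.41 and -0.29 (adjusted p = 0.297 and 0.326). In each line Tnc was lower on average in SnxB, and it passed in none.

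Whether the response to SnxB differed between lines was tested by the interaction of SnxB and hairpin. For shCdk8-1 1 member passed, at a background of 0.305% of 12772 genes: the rise of Serpinf1 was smaller than in cntrl cells by 0.56 on the log2 scale (interaction -0.56, SE 0.108, adjusted p = 0.0264). It was lost without any of 7 of the 12 libraries, namely replicates 1 and 2 of cntrl in DMSO, 1 and 3 of shCdk8-1 in DMSO, 1 of cntrl in SnxB and 1 and 3 of shCdk8-1 in SnxB, with an adjusted p of up to 0.0861. The interaction of Fbn1 was -0.82 (SE 0.189, adjusted p = 0.0708 in edgeR and 0.0123 in DESeq2). Without a count filter it passed in edgeR (-0.85, adjusted p = 9.86e-05). For shCdk8-2 0 members passed by edgeR's quasi-likelihood test or by DESeq2, where 0.0548% of all genes passed in edgeR, and 2 had an unadjusted p under 0.05: Serpinf1 with -0.40 (SE 0.104, adjusted p = 0.288) and Fbn1 with -0.57 (SE 0.195, adjusted p = 0.621). A smaller response in shCdk8-2 cells was thus not shown by the test with the count filter. Without a filter the interaction of Serpinf1 with shCdk8-2 passed in edgeR (-0.42, adjusted p = 0.0151), so that call depended on the filter.

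**Figure D3:**
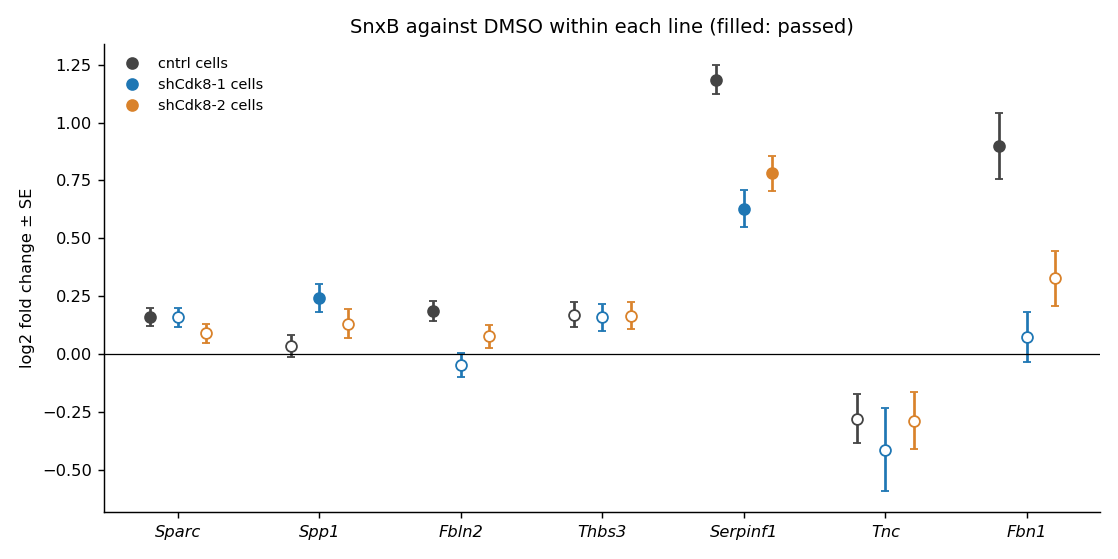
Log2 fold change ± SE (linear axis) of 7 members for SnxB against DMSO within cntrl, shCdk8-1 and shCdk8-2 cells, each point 3 against 3 libraries and filled where the adjusted p was under 0.05. Thbs1 is left out because cntrl cells had at most 2 counts; Serpinf1 is filled in all 3 lines at 1.18, 0.63 and 0.78, and Fbn1 is filled in cntrl cells at 0.90.

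Within SnxB the lines were also compared with each other. Against cntrl in SnxB 8 members passed in shCdk8-1 (background 60.6%) and 7 in shCdk8-2 (background 56.7%), and 4 and 2 of them were deregulated (background 12.8% and 10.8%). Tnc and Thbs1 were deregulated in both lines. Without Thbs1, 7 of 7 and 6 of 7 members passed, with 3 and 1 deregulated. The fall of Tnc was close to that in DMSO, with log2 values of -2.74 (SE 0.137, adjusted p = 7.53e-13) and -1.25 (SE 0.114, adjusted p = 1.1e-08). Thbs1 had 138, 118 and 130 counts in shCdk8-1 and 18, 19 and 28 in shCdk8-2 against 2 in each cntrl library, a ratio of 70.3 (32.0 to 193) and 11.7 (5.11 to 33.2). Serpinf1 differed by -1.15 (SE 0.0720, adjusted p = 2.57e-11) and -0.62 (SE 0.0694, adjusted p = 2.11e-07) on the log2 scale, and Fbn1 by 1.25 (SE 0.121, adjusted p = 2.06e-08) and 0.85 (SE 0.125, adjusted p = 7.85e-06). Spp1 passed with shCdk8-1 at 0.15 (SE 0.0591, adjusted p = 0.0328) although the groups overlapped, and this call was lost without replicate 2 or 3 of cntrl in SnxB or of shCdk8-1 in SnxB (adjusted p up to 0.246).

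Other genes of the same network were followed in 3 lists. Of 52 other matrix glycoproteins 28 were tested. In shCdk8-1 cells 22 passed, 9 higher and 13 lower, with a median log2 fold change of -0.02, and in shCdk8-2 cells 22 passed, 13 higher and 9 lower, with a median of 0.14, beside 0.0019 and 0.0043 for all genes. The background is that given for the members, 60.6% of all genes (30.0% higher and 30.6% lower) with shCdk8-1 and 58.2% (28.7% and 29.5%) with shCdk8-2. The 4 with the largest changes shared by both lines were Matn2, Thbs2, Srpx2 and Tgfbi. Matn2 passed the count filter only through the knockdown lines and Srpx2 only through cntrl cells, so each had to differ between lines to be tested. The counts above include such genes. Matrilin 2 (Matn2) had 0 counts in the cntrl libraries, 37 to 53 in shCdk8-1 and 28 to 31 in shCdk8-2, and was at least 14.6-fold and 8.95-fold higher, computed against 3 counts per cntrl library. Thbs2 rose from 2.19 CPM in cntrl to 74.1 and 58.2 CPM (log2 5.06 and 4.71). Tgfbi, a matrix protein induced by TGF-β, rose from 20.2 to 200.1 and 189 CPM (log2 3.30 and 3.22). Srpx2 had 28 to 42 counts in the cntrl libraries and 0 to 2 and 3 to 4 in the knockdown lines, a ratio of 34.5 (95% counting interval 11.5 to 170) and 10.8 (5.64 to 23.3) towards cntrl.

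SnxB in cntrl cells changed 7 of these 28 genes, 6 higher and 1 lower, at a background of 5.53% (3.42% higher), with a median of 0.06 beside 0.0064. Thbs2 rose from 2.19 to 4.62 CPM (log2 1.05, SE 0.161, adjusted p = 9e-04), and it was the 1 gene of the list called deregulated. The others that rose were Ccn2 (log2 0.47), Ccn5 (log2 0.41), Ltbp3 (log2 0.24), Efemp2 (log2 0.22) and Emilin2 (log2 0.15). Ltbp3 stores latent TGF-β in the matrix, and Efemp2 and Emilin2 belong to elastic fibers, of which fibrillin 1 is the scaffold. Of the same families, Emilin1 (log2 -0.12), Ltbp1 (log2 0.14) and Ltbp4 (log2 0.01) did not pass. The 5 genes that rose beside Thbs2 were named after their values were seen, as were Emilin1, Ltbp1 and Ltbp4.

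Of 19 receptors of the members 14 were tested, and 13 passed with shCdk8-1, 3 higher and 10 lower (background 60.6%, 30.0% higher and 30.6% lower), with a median log2 fold change of -0.25. With shCdk8-2 12 passed, 3 higher and 9 lower (background 58.2%, 28.7% and 29.5%), with a median of -0.23. Itgb1, the shared β chain of most matrix integrins, was 1489 CPM in cntrl, 1118 in shCdk8-1 and 1070 CPM in shCdk8-2, a log2 fold change of -0.42 (SE 0.0436, adjusted p = 5.13e-07) and -0.48 (SE 0.0436, adjusted p = 1.15e-07), and was named after its values were seen, as were Itgb3, Itga8 and Sdc1. Itgb3, which pairs with αv to bind osteopontin and fibronectin, fell from 27.8 to 10.4 and 20.6 CPM (log2 -1.41 and -0.44), and Itga8 fell from 0.648 to 0.358 and 0.298 CPM. Neither knockdown line in DMSO alone would have taken Itga8 past the count filter, so it had to be higher in other libraries to be tested. Plxdc1, described as a receptor of Serpinf1, was the receptor deregulated in both lines, at 0.381, 1.05 and 1.12 CPM (log2 1.44, adjusted p = 0.00111, and log2 1.53, adjusted p = 0.000621). It had 5 to 9 counts in the cntrl libraries in DMSO, 17 to 24 in shCdk8-1 and 20 to 25 in shCdk8-2. Those cntrl libraries alone would not have taken Plxdc1 past the count filter, which limits what its call shows. Sdc1, a heparan sulfate proteoglycan that binds tenascin C and thrombospondin, rose from 199 to 292 and 316 CPM. SnxB changed 2 receptors in cntrl cells (background 5.53%), Itgb3 (log2 0.27, adjusted p = 0.042) and Sdc1 (log2 0.26, adjusted p = 0.000377), both upwards.

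Of 16 enzymes that crosslink or assemble matrix 13 were tested, and 10 passed with shCdk8-1, 4 higher and 6 lower, and 8 with shCdk8-2, 2 higher and 6 lower (median log2 fold change -0.08 and -0.10). The background was 60.6% and 58.2% of all genes, so the share of enzymes that passed with shCdk8-2 was near it. Lysyl oxidase-like 2 (Loxl2), which crosslinks collagen, had 6 to 12 counts in the cntrl libraries and at least 1086 in each knockdown library, or 0.448, 66.8 and 60.7 CPM (log2 7.18, SE 0.109, adjusted p = 8.98e-17, and log2 7.04, SE 0.110, adjusted p = 2.32e-16). The cntrl libraries in DMSO alone would not have taken Loxl2 past the count filter. Loxl3 rose from 3.61 to 7.33 and 10.2 CPM. Tgm2, the transglutaminase that crosslinks fibronectin, fell from 69.5 to 9.94 and 20.2 CPM (log2 -2.81, SE 0.0748, adjusted p = 3.03e-14, and log2 -1.79, SE 0.0675, adjusted p = 3.25e-12). SnxB changed 3 enzymes (background 5.53%), P4ha2 (log2 0.34) and Plod2 (log2 0.28) upwards, both of which hydroxylate collagen chains, and Tgm2 downwards (log2 -0.24, adjusted p = 0.0302), with a median of 0.10. P4ha2 and Plod2 were named after their values were seen.

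**Figure D4:**
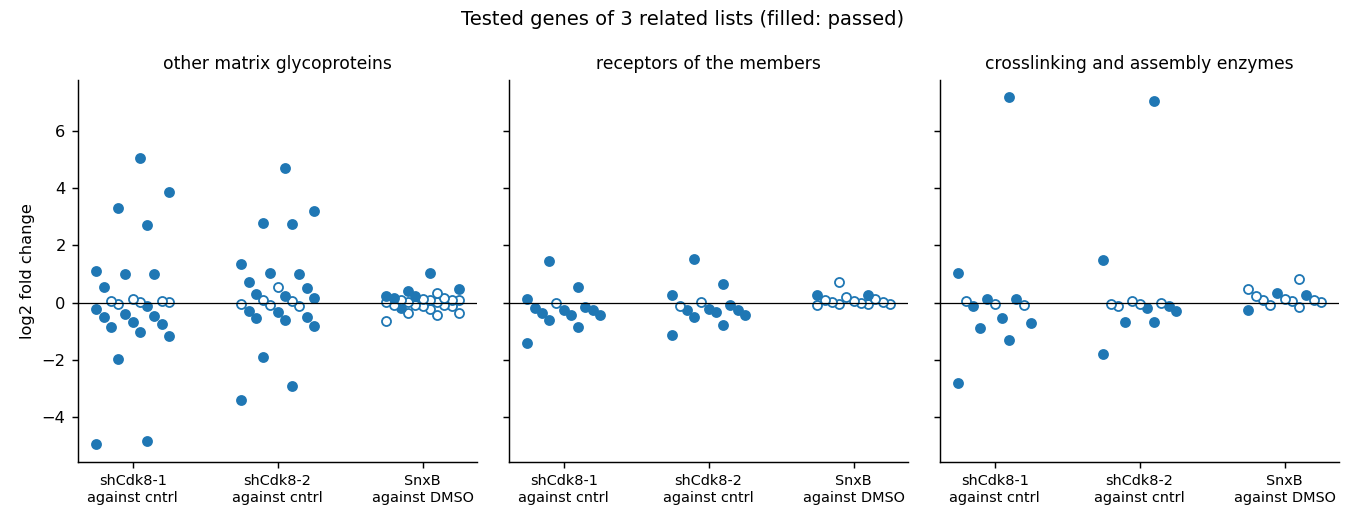
Log2 fold changes (linear axis) of the tested genes of 3 lists, other matrix glycoproteins, receptors of the members, and crosslinking and assembly enzymes, in 3 comparisons, with 1 point per gene and filled points for an adjusted p under 0.05. Matn2 is left out because cntrl cells in DMSO had 0 counts; the highest points among the enzymes are Loxl2 at 7.18 and 7.04, and the points for SnxB run from -0.64 (Matn3) to 1.05 (Thbs2).

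The members did not share a single pattern over the 18 libraries. As a description, with the libraries grouped by line and therefore not independent, Pearson's r of log2 CPM was 0.95 between Tnc and Fbln2 and -0.98 between Tnc and Thbs1. Sparc and Serpinf1, both raised by SnxB in cntrl cells, had r = 0.90. Spp1 had no r above 0.43 in size with another member. Among 11180 genes that averaged 1 CPM or more, those most like a member were Itgb7 for Tnc (r = 0.99), Ak4 and Col6a2 for Fbn1 (r = 0.986 and 0.982), Dstn and Cald1 for Serpinf1 (r = 0.968 and 0.964), Fam129a for Fbln2 (r = 0.99), Ctnnb1 for Thbs1 (r = 0.986), Ddah1 for Thbs3 (r = 0.985), Rab21 for Spp1 (r = 0.978) and Pdia6 for Sparc (r = 0.941).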

How the data were processed

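RNA-seq libraries of 6 groups with 3 libraries each were analysed. The authors trimmed 50 bp single-end reads with Trimmomatic, mapped them with STAR to GRCm38, and deposited read counts per gene, made per the file headers by featureCounts 1.5.1 on GENCODE M13 exons with strand, without normalization or pooling. Gene names came from GENCODE M21. With featureCounts' defaults, reads that map to several places are left out, which lowers counts of near-identical genes. File headers number the shCdk8-2 libraries 2, 3 and 3 where labels have 1, 2 and 3, and labels were used. No libraries held identical counts.

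Counts were analysed in R 4.3.3 with edgeR 4.0.16 (filterByExpr at min.count 10 and min.total.count 15, TMM, glmQLFit and glmQLFTest, Benjamini-Hochberg adjustment over all genes tested). Comparisons among cntrl cells and the DMSO lines used 12 libraries (12590 genes), and comparisons with SnxB-treated knockdown lines used 18 (12772 genes). The SE is the size of the log2 fold change divided by the square root of the F statistic. Code was tested on simulated counts. Count ratios carry exact binomial intervals (95%, counting error only). The study's methods name edgeR, a 2-fold change and 0.05 as the limit of the adjusted p.

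The members and gene lists were chosen with earlier results of these data known. The text names all members, Cdk8, up to 4 genes per list with the largest change shared by both hairpins, genes most like each member (log2 of CPM plus 0.5), and genes stated as named after their values were seen. The values of 1 gene of the lists are not reported here. Alternatives were DESeq2 1.42.0, its size factors or library totals in edgeR, other filters, an adjusted p under 0.01, a replicate block, other sets of libraries and leaving out each library. Figures were drawn with matplotlib.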

Additional observations from a re-analysis of the deposited data

Results flagged for a closer look

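The response of Serpinf1 to SnxB differed between shCdk8-1 and cntrl cells by a test of the difference itself: the interaction was -0.56 on the log2 scale (edgeR, adjusted p = 0.0264). SnxB raised Serpinf1 in all 3 libraries of both lines, with a log2 fold change of 1.18 in cntrl and 0.63 in shCdk8-1 cells. The difference did not pass without any of 7 of the 12 libraries (adjusted p up to 0.0861), with the groups compared alone (adjusted p = 0.0781) or at a limit of 0.01. The cause was not tested.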

How the results depend on the processing

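The replicate numbers gave no clear pairing of the libraries: same-numbered libraries had mean correlations of -0.0564 to 0.185 across genes, and in no comparison were all 3 pairs over 0.1. For shCdk8-2 against cntrl in SnxB 2 pairs were, at 0.318 and 0.164. File headers number the shCdk8-2 libraries otherwise than the labels, so the check cannot settle whether libraries were paired. With the replicate number as a block, 1 member passed for SnxB in shCdk8-1 cells in place of 2, as Spp1 had an adjusted p of 0.0528, and every other count of members was as reported. That count was also 1 with DESeq2's size factors, at an adjusted p under 0.01 and with the groups compared alone, and 3 with library totals, without a filter, with over 1 CPM in 3 libraries and by DESeq2, where Sparc passed too (adjusted p of 0.0126 to 0.0419). For SnxB in cntrl cells 2 members passed at 0.01, and without a filter Tnc passed too, downwards (adjusted p = 0.0214 in edgeR). For the interaction with shCdk8-1, 3 members passed without a filter, 2 by DESeq2, 0 at 0.01 and 0 with the groups compared alone. For that with shCdk8-2, 1 member, Serpinf1, passed without a filter. Leaving out 1 library at a time, the members past the test numbered 2 to 4 for SnxB in cntrl cells (deregulated 1 to 2), 1 to 3 and 1 to 2 for SnxB in shCdk8-1 and shCdk8-2 cells, and 0 to 1 for the interaction with shCdk8-1. In these fits 3 members were deregulated by shCdk8-1 and 3 to 4 by shCdk8-2 in DMSO.

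Signs turned only for differences that had not passed. The interaction of Sparc with shCdk8-1 was 0.029 with library totals, 0.0054 with over 1 CPM in 3 libraries and 0.0011 with the groups compared alone, and that of Thbs3 was 0.019 with library totals. For shCdk8-2 the interaction of Tnc was 0.018 with library totals and 0.0022 with the CPM filter, and that of Thbs3 was 0.0018 with DESeq2's size factors and by DESeq2, 0.024 with library totals, 0.0071 with the CPM filter and 0.0035 with the groups compared alone. Leaving out 1 library moved Sparc with shCdk8-2 between -0.0058 and 0.038, Spp1 with SnxB in cntrl cells between -0.016 and 0.066, Thbs3 between the knockdown lines from -0.021 to 0.060, and Fbln2 with SnxB in shCdk8-1 cells from -0.094 to 0.0040. The interaction with shCdk8-1 ranged from -0.040 to 0.044 for Sparc, -0.25 to 0.017 for Tnc and -0.056 to 0.022 for Thbs3, and that with shCdk8-2 from -0.11 to 0.14 for Tnc, -1.02 to 0.29 for Thbs1 and -0.047 to 0.083 for Thbs3. The cause of these changes was not tested. Depth limits Fn1 and, in cntrl cells, Thbs1, which lay at or under 3 counts, and Postn, which had at most 7.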
